A study of Mus musculus with 30 samples.

Results

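The 8 genes followed here encode extracellular inhibitors of Wnt signalling and their relatives, measured by mRNA sequencing across a study of mouse white fat: Sfrp1, Sfrp2, Sfrp4, Sfrp5, Frzb, Dkk2, Dkk3 and Wif1. They were taken by symbol, and all 8 were found among the 35120 genes of the count table. The study asked about the physiology of fat that lacks β-catenin, the effector of canonical Wnt signalling encoded by Ctnnb1. Its 30 libraries were made from adipocytes or from stromal-vascular cells (SVC), the non-adipocyte cells of collagenase-digested fat. Knockout mice are named Ctnnb1AdKO in the design and Ctnnb1KO in the labels and are shortened to KO here, and their controls carry the floxed allele alone (Ctnnb1fl/fl). Male adipocytes gave 5 KO and 6 control libraries, female adipocytes 6 KO and 6 control libraries, and male SVC 4 KO and 3 control libraries. Mice were matched for sex and age, while the sources used here do not state ages, which exons were removed or what drove their deletion. Every label names epididymal and posterior subcutaneous fat, for females too, so the depot of a library is not known. No label says that replicates are separate mice, so p-values speak only of the spread among libraries, which may be technical.

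Wnt proteins bind Frizzled receptors together with Lrp co-receptors, and the resulting signal stabilises β-catenin. The secreted frizzled-related proteins (encoded by Sfrp1, Sfrp2, Sfrp4, Sfrp5 and Frzb) carry a Frizzled-like domain that can bind Wnt ligands outside the cell, and Wif1 encodes another protein that binds Wnts directly. Dickkopf proteins such as the product of Dkk2 act on the Lrp co-receptor, whereas Dkk3 encodes a divergent relative whose action on Wnt signalling is less settled. Canonical Wnt signalling restrains the formation of fat cells from preadipocytes, and SFRP5 is also known as a protein that mouse fat cells secrete.

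The promoters of Sfrp5 and Sfrp2 are shown because these genes fell on opposite sides in the comparison of fractions, Sfrp5 being higher in adipocytes and Sfrp2 in SVC. Both windows run from 250 bases before to 50 bases after the annotated start, on the gene's own strand (RefSeq, GRCm38.p6), at chr19:42202203-42202502 on the minus strand for Sfrp5 and at chr3:83766071-83766370 on the plus strand for Sfrp2. Capitals mark CpG dinucleotides.
Sfrp5: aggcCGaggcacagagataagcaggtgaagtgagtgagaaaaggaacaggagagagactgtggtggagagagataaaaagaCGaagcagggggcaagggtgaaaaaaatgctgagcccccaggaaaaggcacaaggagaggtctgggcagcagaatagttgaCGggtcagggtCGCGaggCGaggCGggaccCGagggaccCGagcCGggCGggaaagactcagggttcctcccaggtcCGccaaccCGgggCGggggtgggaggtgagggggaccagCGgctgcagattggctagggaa
Sfrp2: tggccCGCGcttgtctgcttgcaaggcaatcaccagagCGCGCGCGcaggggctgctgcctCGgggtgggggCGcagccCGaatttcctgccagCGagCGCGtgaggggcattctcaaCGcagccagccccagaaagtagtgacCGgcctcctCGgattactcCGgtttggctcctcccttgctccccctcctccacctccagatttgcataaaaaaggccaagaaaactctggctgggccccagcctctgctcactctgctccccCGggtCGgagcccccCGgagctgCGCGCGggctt
The Sfrp5 window held 15 CpG and the Sfrp2 window 22, against a median of 7 over 32817 promoter windows of the same length (quartiles 3 and 20). The core of the Tcf/Lef motif, CTTTGA on either strand, was in neither window. It stood once in the Frzb window, 95 bases before the start, and in none of the windows of Dkk2 and Wif1. Of all windows 16.0% held it. No window was listed for the other members.

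Total counts lay between 20484836 and 22209603 per library. Ctnnb1 itself did not separate the genotypes. It averaged 355 ± 33.2 CPM in KO and 366 ± 10.6 CPM in control male adipocytes, 373 ± 32.3 and 347 ± 24.6 CPM in KO and control female adipocytes, and 394 ± 131 and 358 ± 21.4 CPM in KO and control SVC (CPM, counts scaled to a common library size; mean ± SD, n as above). The genotype is therefore that of the label throughout, and each direction given for KO is that of libraries labelled KO. The fractions matched their labels. Adipocyte markers (8 genes, Adipoq and Plin1 among them) summed to 365 to 1642 CPM in SVC, against 40651 to 63943 CPM in adipocyte libraries. Preadipocyte and fibroblast markers (10 genes, Pdgfra and Dcn among them) summed to 5169 to 9246 CPM in SVC, against 491 to 1312 CPM in adipocytes. The first SVC control library stood apart in 7 markers of epididymal epithelium, with 2769 CPM against 0.215 to 61.9 CPM in the other SVC libraries. Over all counts the fourth KO SVC library stood apart from its group. Counts of 2 libraries were compared by a chi-square per degree of freedom. It was 203 to 272 between that library and the other KO SVC libraries, which had 27.6 to 76.2 among themselves. Pairs of control SVC libraries had 66.2 to 116.

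Among the 8 genes, Sfrp5 had the highest level in the adipocyte libraries and Sfrp1 in SVC. On a scale of CPM per kilobase of exon, Sfrp5 reached 73.6 ± 38.1 in KO and 36.5 ± 14.7 in control male adipocytes. In female adipocytes it reached 26.2 ± 31.3 in KO and 20.9 ± 13.3 in controls. It made up 98.7% and 96.7% of the summed level per kilobase of the 8 genes in KO and control male adipocytes, and 94.2% and 89.8% in KO and control female adipocytes. The next gene, Sfrp1, lay at 0.592 ± 0.170 and 0.507 ± 0.108 CPM per kilobase in KO and control male adipocytes. Sfrp2, Sfrp4 and Dkk3 averaged 0.0480 to 0.949 CPM per kilobase in the adipocyte groups. In female controls Sfrp2, at 0.949 ± 0.328, stood above Sfrp4 at 0.505 ± 0.145 and Sfrp1 at 0.484 ± 0.172, and the last 2 differed by less than their SD. In SVC the order per kilobase was led by Sfrp1, at 27.9 ± 11.8 in KO and 34.1 ± 4.95 in controls, which was 67.4% and 62.6% of the sum. Sfrp2 followed at 5.92 ± 2.44 in KO and 11.6 ± 3.46 in controls, and Sfrp4 at 3.98 ± 2.85 and 4.85 ± 1.11. Sfrp2 and Sfrp4 differed by less than their SD in KO SVC but not in control SVC. In KO SVC the next were Sfrp5 at 1.70 ± 1.03 and Dkk3 at 1.39 ± 0.480, which differed by less than their SD, whereas control SVC had Dkk3 at 2.86 ± 1.04 and Sfrp5 at 0.505 ± 0.492. Dkk2 lay at 0.378 ± 0.159 in KO and 0.454 ± 0.160 in control SVC, above Frzb and Wif1, which had at most 23 and 16 counts in any library.

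**Figure D1:**
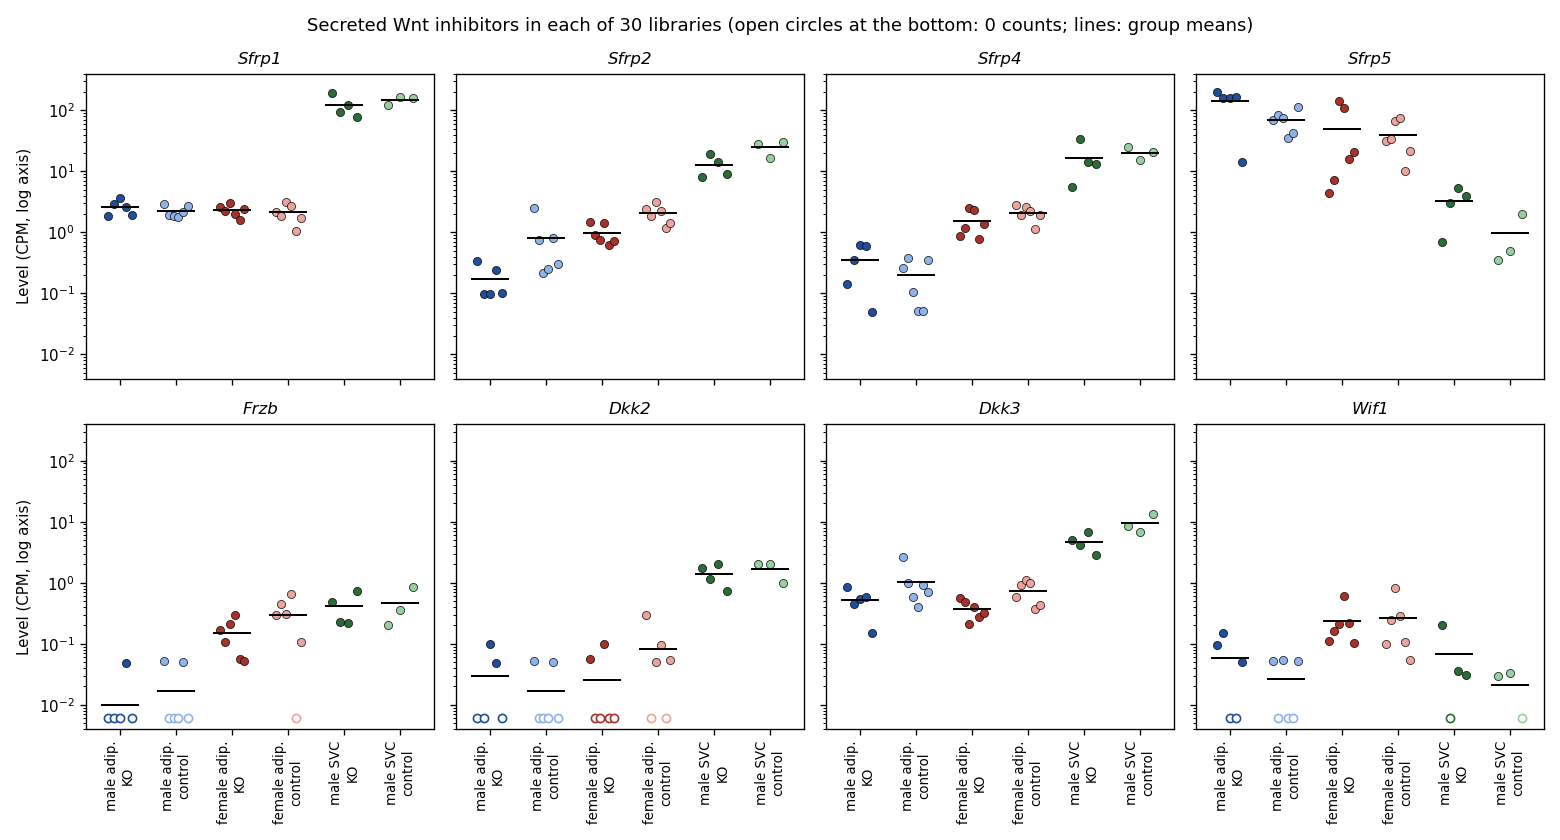
Level of each gene in CPM (log axis) in every library of the 6 groups, with KO left of its control, lines at group means and open circles at the bottom for libraries with 0 counts. Sfrp5 is highest in adipocyte libraries, at 4.38 to 201 CPM against 0.351 to 5.30 CPM in SVC, while Sfrp1, Sfrp2, Sfrp4, Dkk2 and Dkk3 are highest in SVC.

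Sfrp5 varied widely between adipocyte libraries of a group and was not called between genotypes in any comparison. In male adipocytes it had 201, 159, 156, 168 and 14.2 CPM in the KO libraries, against 34.7 to 112 CPM in the 6 controls (median 72.1). In males 4 of the 5 KO libraries were above every control and replicate 5 was below every control. In female adipocytes the 6 KO libraries ran from 4.38 to 142 CPM (median 18.6), against 10.1 to 74.0 CPM in the 6 controls (median 32.9). There, 2 of the 6 KO libraries were above every control and 2 were below every control. The log2 fold change of KO over control was 1.04 ± 0.71 (SE) in males (edgeR quasi-likelihood test, Benjamini-Hochberg adjusted p = 0.552, 95% interval from the SE -0.35 to 2.42) and 0.34 ± 0.68 in females (adjusted p = 0.911). Without the KO library of 14.2 CPM, the male value was 1.33 (adjusted p = 0.284). The female value was -0.32 without the KO library of 142 CPM, and -0.46 with limma-voom. In the authors' regularised log2 values the female means differed by -0.37, KO minus control. In SVC, Sfrp5 had 0.685, 2.97, 5.30 and 3.98 CPM in KO libraries, against 0.351, 0.492 and 2.03 CPM in controls (log2 1.77 ± 0.86, adjusted p = 0.968), with 3 of 4 KO libraries above every control. The summed adipocyte markers ran alongside, at 920 to 1642 CPM in KO SVC against 365 to 1340 CPM in control SVC, all 8 of them with positive fold changes and none called. Adipoq averaged 62.8 ± 45.5 CPM in KO SVC (n = 4) and 27.7 ± 34.1 CPM in control SVC (n = 3). Their part in the Sfrp5 level of SVC was not tested. In bulk libraries a change in the number of cells of a type and a change in RNA per cell cannot be told apart.

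Sfrp2 was called lower in KO adipocytes when the sexes were averaged, and in neither sex alone. Male KO libraries had 0.335, 0.0990, 0.0972, 0.245 and 0.101 CPM, against 0.213 to 2.46 CPM in the 6 male controls (median 0.534). Female KO libraries had 0.611 to 1.50 CPM (median 0.831), against 1.17 to 3.12 CPM in the 6 female controls (median 2.07). All 5 male and all 6 female KO libraries lay below the mean of their controls, and the ranges overlapped in both sexes. These are few reads, 18 in all in male KO and 95 in male control libraries. The log2 fold change was -2.13 ± 0.60 in males (adjusted p = 0.144) and -1.04 ± 0.42 in females (adjusted p = 0.374), and -1.58 ± 0.37 on average (adjusted p = 0.0344, edgeR, 95% interval -2.30 to -0.86). Of the 5 members that passed the filter on low counts in adipocytes (Sfrp1, Sfrp2, Sfrp4, Sfrp5 and Dkk3), 0 were called in males, 0 in females and 1 in the average. Over all 14227 genes tested, 0.0703% were called in males, 0.471% in females and 0.759% in the average, where 0.344% were called lower. At an unadjusted p below 0.05 there were 2 members in each sex, Sfrp2 and Dkk3 both times. Such a p was common, with 13.1% of all genes in males and 10.3% in females. DESeq2 called 1 member in males, Sfrp2 (adjusted p = 0.0241), and 0 in females. The male and female comparisons enter the average and are no separate evidence for it. The number of genes called depends on the fifth male KO library. Without it edgeR called 332 genes in males, against 10 with it, and 246 in the average, against 108. Its chi-square per degree of freedom was 133 to 162 against the other male KO libraries, which had 12.9 to 34.6 among themselves. Pairs within the female adipocyte groups had 17.5 to 189.

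The call on Sfrp2 depended on single libraries and on the test. Without male control replicate 1 the male value was -1.38 (adjusted p = 0.369). The call in the average was lost without that library, where Sfrp2 was highest among males (log2 -1.21, adjusted p = 0.0695), and without male control replicate 5 (adjusted p = 0.0537). It was lost too without male KO replicate 2 (adjusted p = 0.0923), 3 (0.0636) or 4 (0.0560). Among females it was lost without control replicate 3 (0.0694) or 4 (0.0586) and without KO replicate 2 (0.0572) or 5 (0.0562). It was also lost without the filter on low counts (adjusted p = 0.0562) and with limma-voom (adjusted p = 0.0796), and the fold change stayed negative in each of these fits. The antisense gene Gm26771 overlaps exons of Sfrp2. Since the counting is not stated to use strand, reads of the pair cannot be told apart with certainty.

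Dkk3 had lower mean levels in KO libraries in all 3 comparisons of genotype and was called in none. Male KO adipocytes had 0.862, 0.445, 0.534, 0.587 and 0.151 CPM, against 0.404 to 2.62 CPM in the 6 male controls (median 0.813). Female KO adipocytes had 0.212 to 0.554 CPM (median 0.355), against 0.373 to 1.11 CPM in the 6 female controls (median 0.758). In SVC the KO libraries had 5.04, 4.18, 6.67 and 2.82 CPM, against 8.52, 6.76 and 13.5 CPM in controls. Every KO library was below its control mean in all 3, and in SVC the groups did not overlap. The shares of all genes with such patterns are not given here. In SVC edgeR called 0% of all genes. The log2 fold changes were -0.98 ± 0.43 in males (adjusted p = 0.330), -0.98 ± 0.44 in females (adjusted p = 0.436), -0.98 ± 0.31 on average (adjusted p = 0.128) and -1.08 ± 0.33 in SVC (adjusted p = 0.968). Without male control replicate 1 the male value was -0.46 (adjusted p = 0.716) and the average was -0.72 (adjusted p = 0.240).

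Mesothelial markers moved together with Sfrp2 and Dkk3. Mesothelium is the cell sheet that covers visceral fat. Its 10 markers, Msln and Upk3b among them, summed to 6.99 to 27.7 CPM in KO and 19.3 to 133 CPM in control male adipocytes. In female adipocytes they summed to 9.43 to 21.1 CPM in KO and 11.2 to 64.7 CPM in controls, and in SVC to 82.2 to 124 CPM in KO and 198 to 504 CPM in controls. Male control replicate 1, the highest male library in Sfrp2 and Dkk3, was also highest in these markers among adipocyte libraries. In the average over sexes all 9 markers tested had negative fold changes (median -1.44, against 0.01 over all genes), and 3 were called, Krt19, Upk1b and Upk3b. In SVC all 10 were negative (median -2.31) and 0 were called by edgeR, with 8 at an unadjusted p below 0.05, against 2.62% of all genes. No mesothelial marker was at 0 in every library of a group. Their part in the values of Sfrp2 and Dkk3 was not tested. The mesothelial sums of KO and control libraries overlapped in adipocytes of both sexes and not in SVC. The sums of preadipocyte and fibroblast markers overlapped too, at 494 to 660 CPM in KO and 491 to 722 CPM in control male adipocytes and 1010 to 1151 CPM in KO and 894 to 1312 CPM in control female adipocytes. Gene by gene, 5 of these 10 markers had negative fold changes in the average of adipocytes (median -0.13) and 10 of 10 in SVC (median -0.28), with 0 called in either and 2 and 1 at an unadjusted p below 0.05. Over all genes the share at such a p was 15.0% in the average and 2.62% in SVC. Dpp4, a marker of progenitors, had -1.06 ± 0.31 in the average (adjusted p = 0.0991) and -0.70 ± 0.26 in SVC (adjusted p = 0.968). Pi16, another such marker, had -1.14 ± 0.31 in females (adjusted p = 0.110) and -0.17 ± 0.48 in males (adjusted p = 0.914). In the average Pi16 had -0.65 ± 0.28 (adjusted p = 0.276). Among the markers with positive values in the average were Lum (0.31 ± 0.18), Col1a1 (0.22 ± 0.26) and Pdgfra (0.15 ± 0.15). The part of preadipocytes and fibroblasts in the values of Sfrp2 was not tested either. Sums of endothelial, mural, macrophage, Schwann cell and skin or mammary epithelial markers also overlapped between KO and control libraries in each of the 3 comparisons.

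**Figure D2:**
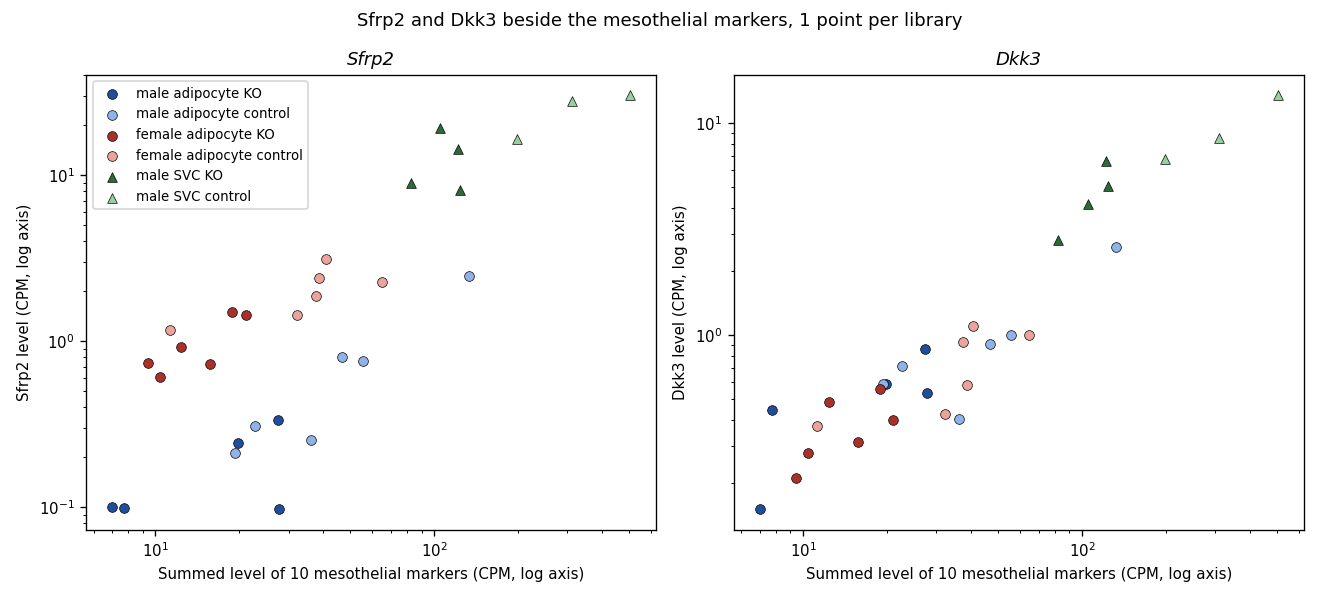
Level of Sfrp2 (left) and Dkk3 (right) in CPM against the summed level of 10 mesothelial markers in CPM, both on log axes, with 1 point per library in the colour of its group. KO libraries tend toward the lower left of their controls, but overlap them on both axes in adipocytes of both sexes. In SVC the mesothelial sum, at 82.2 to 124 CPM in KO and 198 to 504 CPM in controls, and Dkk3 do not overlap, while Sfrp2 does.

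The remaining members showed no called difference between genotypes. Sfrp1 in adipocytes differed by less than its spread, with 1.87 to 3.64 CPM in KO and 1.77 to 2.93 CPM in control males and 1.61 to 3.07 CPM in KO and 1.06 to 3.17 CPM in control females (average log2 0.19 ± 0.16, interval -0.13 to 0.51, adjusted p = 0.614). Sfrp4 in males had 0.0503 to 0.631 CPM in KO and 0.0505 to 0.381 CPM in controls (log2 0.80 ± 0.58, adjusted p = 0.563). In females Sfrp4 had 0.778 to 2.54 CPM in KO and 1.12 to 2.83 CPM in controls (log2 -0.47 ± 0.37, adjusted p = 0.711). The test of the difference between the sexes gave -1.27 ± 0.69 for Sfrp4 (female minus male effect, adjusted p = 0.608). For Sfrp2 it gave 1.09 ± 0.75 (adjusted p = 0.705), or 0.34 without male control replicate 1 (adjusted p = 0.932), and for Sfrp5 -0.69 ± 0.98 (adjusted p = 0.890). None of the 5 members was called in that test, none had an unadjusted p below 0.05, and 0.0141% of all genes were called. DESeq2 and limma-voom also called 0 members. Frzb, Dkk2 and Wif1 were too low in adipocytes to be tested, at no more than 14, 6 and 16 counts in any adipocyte library.

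In SVC, the compartment where most of these genes are highest, no member separated KO from control by the test. Of 7 members tested 0 were called by edgeR, DESeq2 or limma-voom, and 2 had an unadjusted p below 0.05, Sfrp2 and Dkk3. Of all 16404 genes 0% were called by edgeR, while 429 had an unadjusted p below 0.05 and DESeq2 called 76. Sfrp1 had 194, 92.9, 124 and 77.9 CPM in KO and 124, 163 and 160 CPM in control SVC (log2 -0.34 ± 0.29, interval -0.91 to 0.23). Sfrp2 had 8.16, 19.4, 14.5 and 8.95 CPM in KO and 28.2, 16.4 and 30.3 CPM in control SVC (log2 -1.02 ± 0.35, adjusted p = 0.968). For both genes 3 of the 4 KO libraries were below every control, and the ranges overlapped. Sfrp4 had 5.52, 33.5, 14.3 and 13.2 CPM in KO and 24.8, 15.6 and 20.4 CPM in control SVC, with the lowest and the highest value both in KO. Dkk2 had 0.720 to 2.04 CPM in KO and 0.998 to 2.05 CPM in control SVC, and Frzb 0.215 to 0.720 CPM in KO and 0.205 to 0.845 CPM in control SVC. Without the SVC control rich in epididymal markers, the log2 values were -0.42 for Sfrp1, -0.88 for Sfrp2, -0.12 for Sfrp4, 1.39 for Sfrp5 and -1.12 for Dkk3, again with no call. The fourth KO library, which stood apart in its counts, had the lowest Sfrp1 and Dkk3 of all SVC libraries. Leaving out each SVC library in turn gave -0.63 to -0.19 for Sfrp1 and -1.27 to -0.85 for Sfrp2. For Dkk3 it gave -1.29 to -0.79, and 0 members were called in any of these fits.

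**Figure D3:**
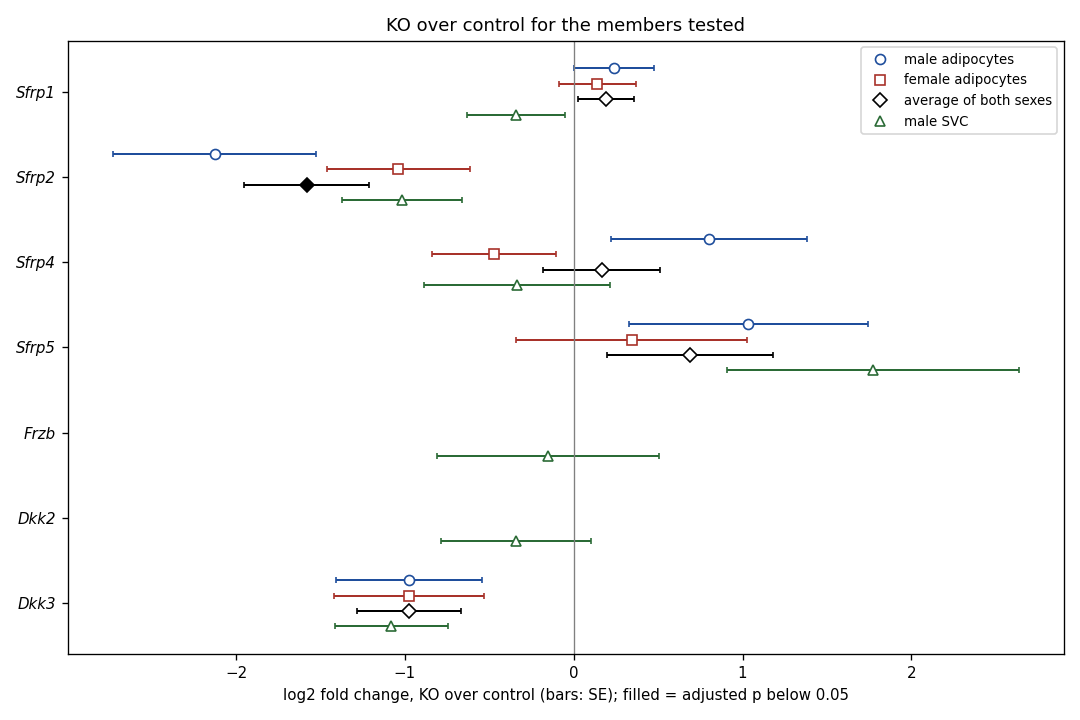
Log2 fold change of KO over control, with SE as bars, for the members tested in male adipocytes, female adipocytes, the average of the sexes and male SVC, filled where the adjusted p is below 0.05. Sfrp2 and Dkk3 lie left of 0 in all 4, and the single filled symbol is Sfrp2 in the average, at -1.58.

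The sexes differed in Sfrp4 and Sfrp2, in libraries of both genotypes. Sfrp4 had 1.12 to 2.83 CPM in female and 0.0505 to 0.381 CPM in male controls, and 0.778 to 2.54 CPM in female and 0.0503 to 0.631 CPM in male KO libraries. The groups did not overlap in either genotype, and the share of all genes without overlap is not given here. The log2 fold change of female over male was 3.38 ± 0.47 in controls (adjusted p = 5.03e-06) and 2.11 ± 0.46 in KO libraries (adjusted p = 0.00107). Sfrp2 was higher by 1.38 ± 0.43 on the log2 scale in female over male controls (adjusted p = 0.0118) and by 2.47 ± 0.59 in female over male KO libraries (adjusted p = 0.00213). Among KO libraries its groups did not overlap, whereas among controls male replicate 1, at 2.46 CPM, fell within the female range. Without that library the control value was 2.11 (adjusted p = 0.000138). Sfrp5 pointed the other way, at -0.77 ± 0.68 in controls (adjusted p = 0.376) and -1.46 ± 0.71 in KO libraries (adjusted p = 0.116). In KO libraries Sfrp5 was called with limma-voom (-2.11, adjusted p = 0.0361), without the male KO library of 14.2 CPM (-1.80, adjusted p = 0.0434) and without the female KO library of 142 CPM (-2.16, adjusted p = 0.0246). Sfrp1 did not separate the sexes, at -0.03 ± 0.23 in controls and -0.13 ± 0.24 in KO libraries.

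A call between the sexes was common among all genes. In controls 2 of 5 members were called, both higher in females, against 43.8% of 14227 genes called and 23.7% called higher. In KO libraries it was again 2 of 5, both higher in females, against 34.6% called and 18.2% called higher. Most preadipocyte and fibroblast markers were called in the same direction as Sfrp4 and Sfrp2. Of 10, 6 were called higher in female controls and 7 in female KO libraries, and 0 were called lower in either. Dcn, which encodes the proteoglycan decorin, had a negative value in both, at -0.31 ± 0.25 in controls (adjusted p = 0.338) and -0.57 ± 0.27 in KO libraries (adjusted p = 0.0990). Pi16, a marker of fibroblast-like progenitors, was 4.14 ± 0.38 higher on the log2 scale in female controls (adjusted p = 1.88e-08), and Lum 2.33 ± 0.26 (adjusted p = 3.72e-07). The part of such cells in the sex difference was not tested. Because every label names both depots, sex and depot make-up cannot be told apart. Frzb and Wif1, which did not pass the filter, also had more reads in female adipocytes. Frzb had 17 counts over the female KO and 1 over the male KO libraries, and 37 over the female and 2 over the male controls. Wif1 had 27 counts over the female KO and 6 over the male KO libraries, and 32 over the female and 3 over the male controls.

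Between the fractions of male mice, 6 of the 7 members tested were higher in SVC and Sfrp5 was higher in adipocytes. This held in KO and in control libraries. The male groups did not overlap for any of the 7, and the share of all genes without overlap is not given here. Female adipocytes were not part of this comparison. Their lowest Sfrp5, 4.38 CPM in KO, lay below the highest of KO SVC, 5.30 CPM. Their highest Frzb, 0.665 CPM in controls, lay within the range of control SVC (0.205 to 0.845 CPM). Sfrp1, Sfrp2, Sfrp4, Dkk2 and Dkk3 in female adipocytes stayed below every SVC library. A call was again common, with 76.5% of 17251 genes called in KO libraries (44.7% higher and 31.8% lower in SVC) and 77.1% in controls (44.2% higher and 32.8% lower). Sfrp1 averaged 122 ± 51.5 CPM in SVC and 2.59 ± 0.741 CPM in adipocytes of KO mice (log2 5.67 ± 0.28, adjusted p = 2.85e-11), and 149 ± 21.6 CPM in SVC and 2.22 ± 0.474 CPM in adipocytes of controls (6.20 ± 0.27, adjusted p = 8.74e-12). For Sfrp2 the log2 SVC over adipocyte value was 6.23 ± 0.68 in KO and 5.09 ± 0.59 in control libraries, for Sfrp4 5.63 ± 0.66 and 6.75 ± 0.66, and for Dkk3 3.27 ± 0.51 and 3.33 ± 0.49. Without male adipocyte control replicate 1 the control value of Sfrp2 was 5.83. For Sfrp5 it was -5.33 ± 0.77 in KO and -6.10 ± 0.93 in control libraries, and -7.21 without SVC control replicate 3, which had the most Sfrp5 and the most adipocyte marker RNA of the 3. Frzb and Dkk2 were called too, but had 1 and 3 counts in all KO and 2 and 2 counts in all control male adipocyte libraries, so their fitted fold changes depend on the model. They had 49 and 160 counts in KO SVC and 40 and 157 counts in control SVC. All 7 calls held without the SVC control rich in epididymal markers.

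The male adipocyte levels of Sfrp1, Sfrp2, Sfrp4 and Dkk3, set against SVC, lay within the range of the stromal markers. That range is wide, so lying within it does not show which cells made the RNA. Adipocyte levels were 1.38% of the SVC level for Sfrp2 in KO and 3.21% in control libraries, 2.12% and 1.49% for Sfrp1, and 2.12% and 0.989% for Sfrp4. The 10 preadipocyte and fibroblast markers had a median of 3.68% in KO libraries (0.222% to 15.4%) and 3.81% in controls (0.183% to 13.7%). Dkk3 had 11.0% in KO and 10.8% in control libraries, above the stromal medians and within both stromal ranges. The mesothelial markers had medians of 24.0% in KO and 13.8% in control libraries. Sfrp5 had 4320% and 7226% by the same measure. Whether adipocytes themselves make the low levels of Sfrp1, Sfrp2, Sfrp4 and Dkk3 was not tested. A test of whether the genotype effect differed between SVC and adipocytes called 0 of 7 members, with 0 at an unadjusted p below 0.05 and 0 by DESeq2 or limma-voom. Of all 17251 genes 0% were called by edgeR, with 1149 at an unadjusted p below 0.05, and DESeq2 called 14.

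**Figure D4:**
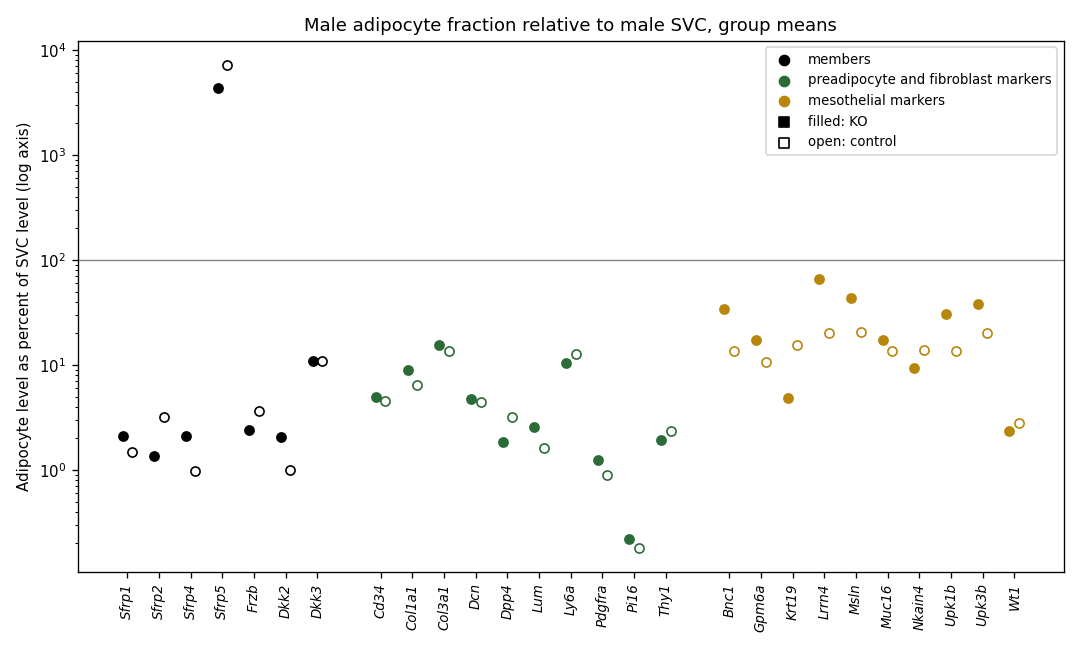
Mean male adipocyte level as a percentage of the mean male SVC level (log axis) for 7 members, 10 preadipocyte and fibroblast markers and 10 mesothelial markers, filled for KO and open for control; Wif1, near 0 counts in both fractions, is left out. Sfrp5 lies far above 100%, while Sfrp1, Sfrp2 and Sfrp4 lie between 0.989% and 3.21%, among the stromal markers.

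The genes whose pattern over the 30 libraries was closest to each member were sought among 14488 genes, by the root mean square difference of log2 levels after each gene was centred on the mean of its 6 group means. For Sfrp5 they were Crtac1, Prkag3 and Krt79, with differences of 0.917, 1.06 and 1.10. Crtac1, which encodes a cartilage matrix protein, had 70.6, 114, 87.4, 116 and 35.9 CPM in male KO libraries, its lowest value being in the same library as that of Sfrp5. Prkag3, a subunit gene of AMP-activated protein kinase, and Krt79, a keratin gene, were lowest in that library too among male KO libraries, at 4.78 and 8.91 CPM. None of these 3 genes was called between genotypes in either sex. For Dkk3 the closest were Myrf (0.422), Lsr (0.518) and Fras1 (0.541). Myrf, a transcription factor gene, had -1.25 ± 0.34 in the average of KO over control adipocytes (adjusted p = 0.0826). For Sfrp2 they were Fbln1 (0.561), Tnfrsf11b (0.634) and Gabra3 (0.672), and for Sfrp4 the proteoglycan gene Lum (0.780), Gpm6b (0.802) and Ces2g (0.827). Abca6 (0.384), Skap1 (0.391) and Lrrc17 (0.440) were closest to Sfrp1. The measure takes in both fractions, so a gene that differs between SVC and adipocytes by a like amount scores as close. It also takes in each library, the fifth male KO library among them. A low value shared with Sfrp5 there is part of what the search selects and is no separate evidence.

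**Figure D5:**
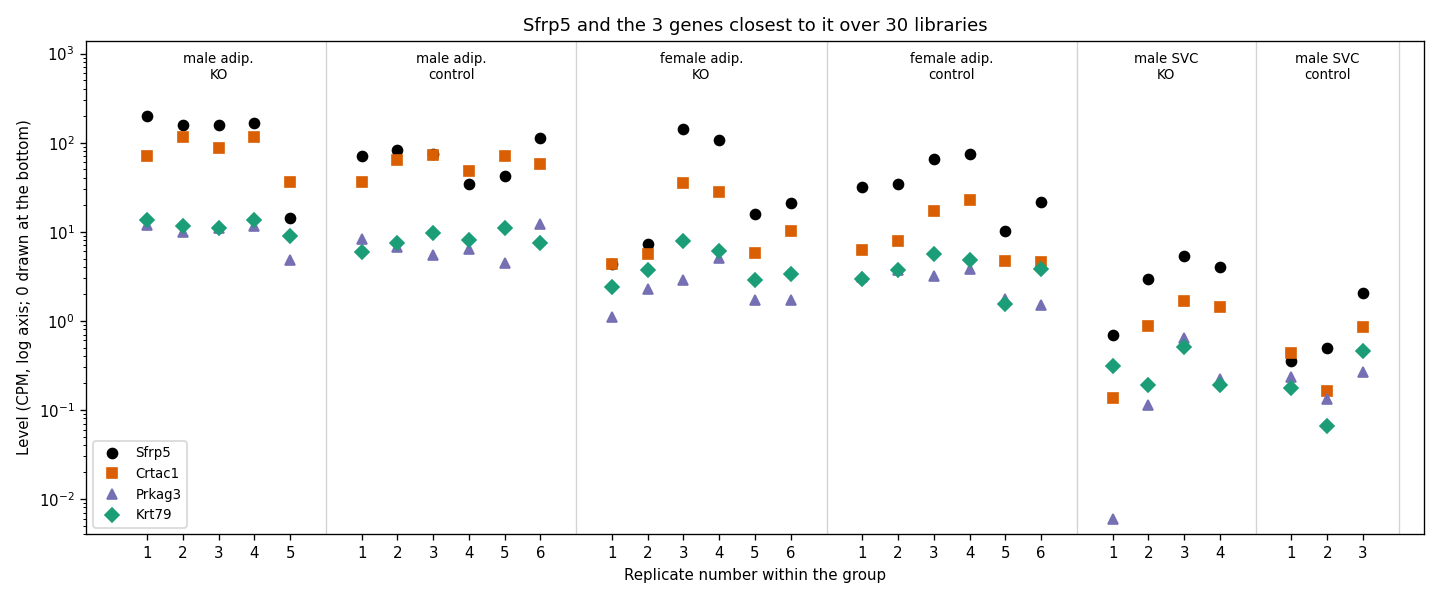
Level in CPM (log axis) of Sfrp5 and of the 3 genes closest to it, Crtac1, Prkag3 and Krt79, in each library, with KO left of its control. In male KO libraries all 4 genes are lowest in replicate 5, where Sfrp5 has 14.2 CPM, and the 3 genes were chosen for their likeness to Sfrp5 over these same libraries.

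Among the other genes of the pathway, 0 of 37 tested in adipocytes were called by edgeR between genotypes, in males, in females or in their average, and 0 of 53 tested in SVC. At an unadjusted p below 0.05 there were 4 in males, 4 in females, 6 in the average and 4 in SVC, and other tools were not run on these lists. Over all genes the share at such a p was 13.1% in males, 10.3% in females, 15.0% in the average and 2.62% in SVC. In adipocytes the filter passed 1 of 9 further secreted inhibitors, 5 of 8 membrane-bound inhibitors, 3 of 7 R-spondin and Lgr genes, 7 of 21 Wnt ligand and secretion genes, 14 of 16 receptors and 7 of 12 targets. Their median log2 fold changes in the average were -0.14, 0.01, -0.62, -0.03, -0.02 and -0.08, in that order, against 0.01 over all genes. The secreted inhibitor that passed was Igfbp4, which also binds insulin-like growth factors. It averaged 710 ± 49.9 CPM in KO and 764 ± 86.0 CPM in control male adipocytes, a higher count than any of the 8 members. Dkk1, Sost and Sostdc1, each a known secreted inhibitor, reached no more than 0.313 CPM in any library. Axin2, a feedback inhibitor and target named here after its values were seen, averaged 13.1 ± 3.51 CPM in KO and 18.7 ± 5.54 CPM in control male adipocytes, and 6.88 ± 2.17 CPM in KO and 12.1 ± 4.05 CPM in control female adipocytes (average log2 -0.65 ± 0.17, adjusted p = 0.0816).

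Other inhibitors were called in both directions between the male fractions, where 44.7% of all genes were called higher and 31.8% lower in KO SVC, and 44.2% higher and 32.8% lower in control SVC. Apcdd1, which encodes a membrane-bound Wnt inhibitor, averaged 12.2 ± 3.85 CPM in SVC and 358 ± 76.5 CPM in adipocytes of KO mice (log2 -4.77 ± 0.25), and 10.3 ± 2.92 CPM in SVC and 381 ± 20.9 CPM in adipocytes of controls (-5.08 ± 0.28). Of 7 membrane-bound inhibitors tested, 3 were higher and 3 lower in SVC, in KO and in control libraries, near the share over all genes. Igfbp4 was lower in SVC (-0.73 ± 0.15 in KO and -0.55 ± 0.16 in control libraries). From the list of further secreted inhibitors, Notum (5.06 ± 1.15 in KO, 3.74 ± 1.05 in controls) and Dkkl1 (7.94 ± 1.83 in KO, 6.45 ± 1.75 in controls) were called higher in SVC. Neither passed the filter on low counts in adipocytes, so these fold changes are imprecise. Dkkl1 had 2.27 ± 2.34 for KO over control in SVC (adjusted p = 0.968). Whether Dkkl1 inhibits Wnt signalling is not shown by these data. Of 12 Wnt ligand and secretion genes, 9 were higher and 2 lower in KO SVC, and 10 higher and 1 lower in control SVC. Of 15 receptors, 9 were higher and 3 lower in KO SVC, and 10 higher and 3 lower in control SVC. The receptor genes Ror1 (4.77 ± 0.27 in KO, 4.86 ± 0.26 in controls) and Ptk7 (4.32 ± 0.41 in KO, 4.84 ± 0.40 in controls) were higher in SVC, and Fzd4 was lower (-3.14 ± 0.24 in KO, -3.17 ± 0.27 in controls). Tcf7, which encodes a Tcf factor, was higher in SVC by 6.61 ± 0.45 in KO and 6.60 ± 0.42 in control libraries. Between the sexes, 12 of 37 genes were called in KO and 13 of 37 in control adipocytes, no more than the share over all genes (34.6% in KO and 43.8% in control libraries). Shisa2, which encodes an inhibitor of Frizzled maturation, was lower in females (log2 -1.52 ± 0.23 in KO and -1.59 ± 0.22 in controls). Rspo3, which encodes an enhancer of Wnt signalling, averaged 0.0178 ± 0.0276 CPM in female and 0.382 ± 0.190 CPM in male KO libraries, and 0.0334 ± 0.0259 CPM in female and 0.554 ± 0.207 CPM in male controls, and was called lower in females of both genotypes.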

How the data were processed

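RNA of 23 adipocyte and 7 SVC libraries was sequenced as mRNA. The authors deposited a table of raw counts per gene and a table of regularised log2 values. The tools named per the submitters' processing notes are STAR 2.7.11a, FastQC 0.12.1 and DESeq2, with genome build mm39. No source used here names the counting program, its annotation or its strand setting. The log2 table served to check directions. Of 56 combinations of a member and a pair of groups, 55 had the same sign as in CPM. The exception was Sfrp5 in female adipocytes, KO minus control, at -0.37 in the log2 values. Counts were tested with edgeR 4.0.16 (quasi-likelihood, robust, TMM scaling, filterByExpr with a minimum count of 10) in R 4.3.3, in 3 fits: 23 adipocyte, 7 SVC and 18 male libraries. Genes with a Benjamini-Hochberg adjusted p below 0.05 over all genes tested are called. limma 3.58.1 voom and DESeq2 1.42.0 were alternatives, as were other scaling, no filter, replicate blocks and leaving out each library. The fits were tested on simulated counts.

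Levels are CPM with TMM scaling over all 30 libraries. Lengths per kilobase are the union of exons in GENCODE M21, so levels per kilobase are approximate. Replicate numbers were taken to pair groups only where every pair of libraries correlated above 0.1, which no comparison of genotypes or sexes met. The numbers in the column names paired the KO fractions (correlations of 0.160 to 0.175), and blocking on them changed no call on a member there. Members and gene lists were chosen with earlier results of these data known. The genes named are the members, up to 3 called genes per Wnt list and comparison, and the 3 genes closest to each member with at least 1 CPM, of which those for Dkk2 are not reported here. The precision of levels is limited by total counts of 20484836 to 22209603 per library.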

Additional observations from a re-analysis of the deposited data

Results flagged for a closer look

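Of 40 sets of libraries of 1 gene and 1 group, 7 held a library far from the rest of its group by Dixon's test. Chance flags about 1 of 20 sets where values are continuous and normal. Levels of a few reads are neither, so the number of flags cannot be weighed against that rate. The first male adipocyte control had 2.46 CPM of Sfrp2, against 0.213 to 0.808 CPM in the other male controls, and 2.62 CPM of Dkk3, against 0.404 to 1.00 CPM. Its mesothelial markers summed to 133 CPM, and their part in these values was not tested. The fifth male KO library had 14.2 CPM of Sfrp5, against 156 to 201 CPM in the other male KO libraries. The remaining flags lay at a few reads. Frzb had 0.0489 CPM, 1 read, in the fourth male KO library, against 0 in the others. Dkk2 had 0.292 CPM in the first female control, against 0 to 0.0950 CPM in the others. Wif1 had 0.595 CPM in the fourth female KO library, against 0.104 to 0.222 CPM, and 0.806 CPM in the third female control, against 0.0532 to 0.285 CPM.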

How the results depend on the processing

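Among the recomputed fold changes of members, 1141 kept their direction and side of the threshold, 37 changed sign, 11 lost a call and 4 gained one. DESeq2 called 159 genes and 1 member in males, 206 genes in females, 350 in their average, 23 in the difference of the sexes, 76 in SVC and 14 in the difference of the fractions. With the compared groups alone, 6 genes were called in males and 26 in females. Without the filter, 1 gene was called in the difference of the sexes, 0 members in the average and 4 members between female and male controls. limma-voom called 0 members in the average. With the replicate block on title or column numbers, Sfrp2 in the average was -1.62 (adjusted p = 0.0180) or -1.60 (adjusted p = 0.0218), and 1 gene was called in the difference of the sexes under either block and 1 gene in SVC under the title block. Same-numbered female KO and control libraries correlated at 0.297, 0.144, 0.528, 0.634 and 0.436 for replicates 1, 2, 4, 5 and 6 and at -0.0333 for replicate 3, each being the closest match for replicates 1, 4, 5 and 6, a hint of pairing from the data. In females the block left 0 members called, with 65 (title) or 53 (column) genes. Signs changed for values near 0: Sfrp5 in females (limma-voom, -0.46), Dkk3 in the difference of the sexes (upper-quartile scaling -0.00839, no filter -0.000381, limma-voom -0.0181), Sfrp1 in that difference (column block, 0.0412), Sfrp4 in SVC (column block, 0.29), Sfrp1 between female and male controls (upper-quartile scaling, 0.00332) and Dkk3 in the difference of the fractions (title block, 0.14). The cause was not tested. Leaving out 1 library at a time gave 4 to 332 genes called in males (lowest without the first control, highest without the fifth KO library), 32 to 89 in females, 0 to 22 in the difference of the sexes, 60 to 246 in the average (without the same 2 libraries), 0 to 1 in SVC and 0 to 1 in the difference of the fractions. It gave 0 to 1 members in the average and 2 to 3 between female and male KO libraries. The ranges were -0.32 to 0.61 for Sfrp5 in females, -0.24 to 0.0543 for Sfrp1 and -0.51 to 0.27 for Dkk3 in the difference of the sexes, -0.62 to 0.49 for Frzb in SVC, -0.20 to 0.0778 for Sfrp1 and -0.65 to 0.0370 for Dkk3 between female and male controls, and -0.14 to 1.87 for Frzb, -1.46 to 0.0359 for Dkk2 and -0.56 to 0.25 for Dkk3 in the difference of the fractions. SVC levels depend on scaling: Sfrp1 in control SVC was 149 CPM as reported, 212 CPM per library total and 210 CPM with TMM within the fraction. Sfrp2 had 2 to 7 reads in a male KO library, so its values there carry large counting error.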
